A study of Mus musculus with 6 samples.

Results

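The proteasome is the large protease that degrades ubiquitin-tagged proteins in the cytosol and nucleus, and its subunits are encoded by the gene families Psma, Psmb, Psmc and Psmd. Members were chosen by name, as the genes whose symbol begins with 1 of these stems followed by a digit, without the immunoproteasome genes Psmb8, Psmb9 and Psmb10, and with a mean of at least 1 FPKM over the genotypes. FPKM is the number of fragments scaled to transcript length and to all mapped fragments, so levels can be compared between genes. The names took in 37 genes, of which 35 passed the minimum, among 9866 genes of the 20433 gene names that did so. Of the 35, 31 encode proteasome subunits and 3 (Psmd5, Psmd9 and Psmd10) encode chaperones that help to assemble the regulatory particle. The last, Psmc3ip, encodes a factor of meiotic recombination and is no proteasome subunit. The genes below the minimum were Psmb11, the thymus-specific catalytic subunit, at 0.931 FPKM in wt/fl cells and 0.90 in fl/fl, and Psma8, the testis-specific alpha subunit, at 0.0514 and 0.387 FPKM. The lowest members above it were Psmc3ip, with a mean of 5.33 FPKM, and Psmd9, with 5.36.

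RNA was sequenced from follicular B cells of C57BL/6 mice, sorted as B220+AA4.1-CD23+CD21lo, with 3 samples of CD23Cre+Myh9wt/fl and 3 of CD23Cre+Myh9fl/fl mice. Both genotypes carried the CD23Cre transgene, which is active from the transitional B cell stage on and removes the LoxP-flanked part of Myh9 from 1 allele in wt/fl cells and from both in fl/fl cells. The comparison group was therefore haploinsufficient for myosin IIa, and neither wild-type nor Cre-negative cells were part of these data. No treatment is named in the labels. The study used young adult mice of both sexes for ex vivo analysis and gives a wider age range, without sex, for in vitro work. Its text does not say which applies to the mice sequenced. The authors' table holds 1 pooled FPKM per genotype, so there is no spread between mice, no test was made from these values, and read depth is unknown. The authors' own test results in the table were not used. Differences are given as the log2 ratio of fl/fl over wt/fl after 1 was added to each FPKM, which understates the change of low genes, and a gene was counted as differing when this ratio was at least 0.32 in either direction, which is 25% higher or 20% lower.

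The 26S proteasome consists of a barrel-shaped 20S core and a 19S regulatory particle on its ends. In the core, outer rings of alpha subunits gate the entry, and inner rings of beta subunits hold the proteolytic sites. The regulatory particle binds ubiquitin chains, removes them, and unfolds the substrate with a ring of ATPases. In lymphocytes the constitutive catalytic subunits are largely replaced by those of the immunoproteasome, which favours the cleavage of peptides suited to MHC class I. When proteasome activity is limiting, the transcription factor Nfe2l1 is released from the endoplasmic reticulum and induces subunit genes together through antioxidant response elements.

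Myh9, the deleted gene, was at 50.6 FPKM in wt/fl cells and 21.1 FPKM in fl/fl cells, 41.7% of the haploinsufficient level. The deleted part is exon 3, and fragments from the other exons still count toward this value. The sorted cells carried the markers of B cells. All 10 of 10 B cell markers passed the minimum, their FPKM summed to 5304 in wt/fl cells and 5585 in fl/fl, and the most abundant was Cd79b, a chain of the B cell receptor, at 1638 and 1739 FPKM. The only B cell marker past 0.32 was Fcer2a, which encodes CD23, a marker of the sort, at 439 and 588 FPKM (0.42).

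Proteasome genes were present at moderate to high levels and differed little between the genotypes, with a small excess on the fl/fl side. Of the 35 members, 26 were higher and 9 lower in fl/fl cells, against 50.5% of all 9866 genes and 51.9% of the 7302 genes in the members' range of mean FPKM (5.33 to 180) that were higher. Their summed level was 2481 FPKM in wt/fl cells and 2647 FPKM in fl/fl cells, 6.69% higher, which was 0.417% and 0.444% of all FPKM in the table. The median log2 ratio was 0.07, against 0.003 for all genes and 0.007 for genes in the same FPKM range. The subunit gene Psmd3 alone was higher by at least 0.32 on the log2 scale, and 0 members were lower by that much. Among all genes, 4.6% were higher and 5.48% lower by at least 0.32, and in the members' FPKM range 3.33% and 3.62%, so 1 and 0 of 35 stand near the background.

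The members also varied less among themselves than genes in general. Their log2 ratios ran from −0.12 (Psmd5) to 0.38 (Psmd3), with an SD over genes of 0.10, compared with 0.23 for all genes and 0.21 for genes in their FPKM range. Both genotypes agreed within 1.1-fold for 27 of the 35 members (77.1%), compared with 59.8% of all genes and 64.1% of those in the FPKM range. Genes in that range had a lower median level, 18.9 FPKM against 67.6 for the members. The share within 1.1-fold was higher in 2 other sets of subunit genes. These were 78 cytosolic ribosomal protein genes (88.5%) and 12 genes of the translation initiation factor eIF3 (91.7%). It was lower, at 66.7%, in 9 genes of the COP9 signalosome, a complex related to the regulatory particle. Median levels of these sets were 1993, 154 and 26.2 FPKM. Read against the quartiles of all genes (−0.11 and 0.11), 13 members lay above the upper quartile (12 with only the most abundant entry of each gene), 21 between the quartiles and 1, Psmd5, below the lower. These are descriptions of 1 pooled value per genotype, and the spread that separate mice would give is not known.

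**Figure D1:**
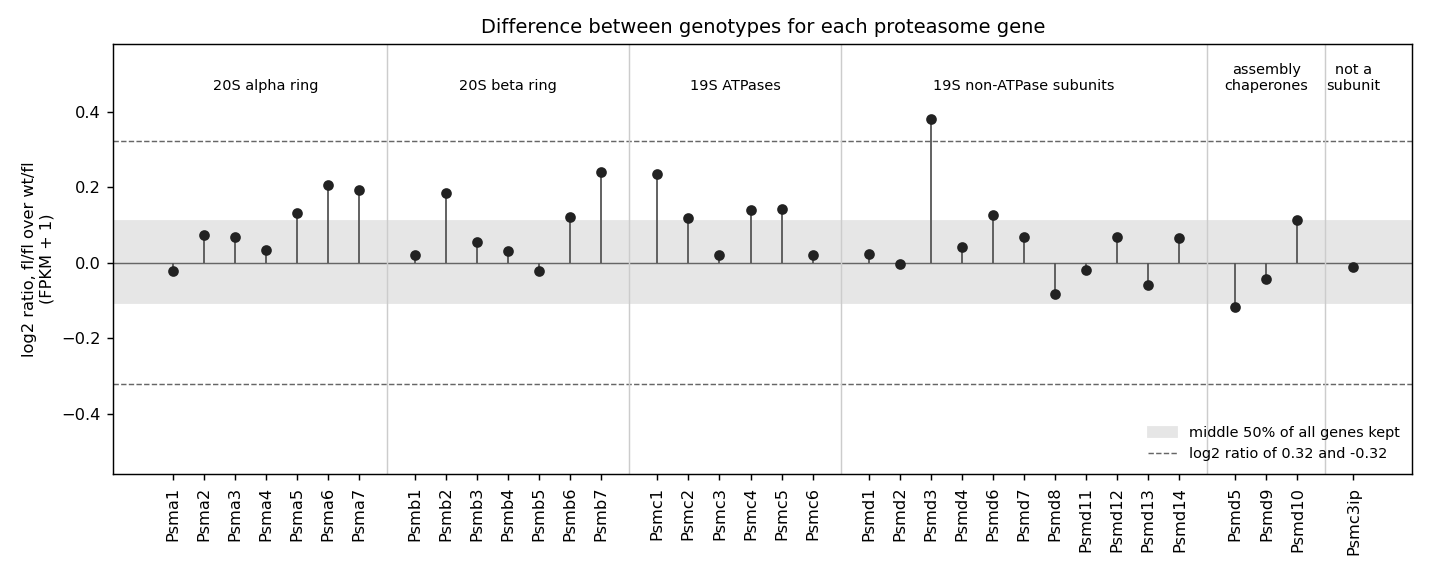
Log2 ratio of fl/fl over wt/fl (FPKM + 1) for each of the 35 members, arranged by class. The grey band spans the middle 50% of all 9866 genes and the dashed lines mark 0.32 and −0.32. All 6 ATPase genes lie above 0, and Psmd3 is the only member past a dashed line.

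Markers of neutrophils and red cells differed far more between the pooled samples than any proteasome gene. All 7 of the 10 neutrophil markers that passed the minimum were lower in fl/fl by at least 0.32. The neutrophil list summed to 378 FPKM in wt/fl cells and 66.6 FPKM in fl/fl, with S100a9 the most abundant at 175 and 34.5 FPKM. Mpo and Elane, both below the minimum, were at 0.0916 and 0.119 FPKM in wt/fl cells and at 0 in fl/fl. Red cell markers summed to 100.3 and 13.8 FPKM, all 3 of the 6 found that passed the minimum were lower by at least 0.32, and the most abundant was the globin gene Beta-s at 52.0 and 7.08 FPKM. T cell markers summed to 9.40 and 7.75 FPKM (most abundant Cd3d, 3.02 and 2.31), with 1 of 4 lower by at least 0.32. Macrophage markers summed to 14.6 and 13.5 FPKM (most abundant Cd68, 7.41 and 6.10), with 0 of 4 lower and 1 higher by that much. Plasma cell markers summed to 118 and 107 FPKM, most of it from Irf4 (60.8 and 58.9) and Xbp1 (48.8 and 45.9), which B cells also express, with Tnfrsf17 at 0 in both. The 2 of 4 that were lower by at least 0.32 were Igj, the J chain of secreted antibody, at 5.40 and 0.617 FPKM (−1.98), and Sdc1 at 2.30 and 1.13 FPKM (−0.63). The part of these cells in the proteasome values was not tested, and fewer cells of a type and less RNA per cell cannot be told apart.

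Promoter sequences are shown for the elements through which subunit genes are known to be controlled together. RefSeq windows on GRCm38.p6, from 250 bases before to 50 after a gene's start, were matched by symbol for 29 of the 35 members, and none was matched for Psmb1, Psmb2, Psmb7, Psmc3, Psmd3 and Psmd7. The core of the antioxidant response element, TGACNNNGC on either strand, lay in the windows of 5 of the 29 genes (17.2%), Psmb5, Psmb6, Psmc6, Psmd9 and Psmd12, compared with 17.1% of the 7509 kept genes with a window and 12.4% of all 32851 windows. In Psmb5, Psmb6 and Psmd9 it lay within 60 bases of the start. The stretches are on chromosome 14 at chr14:54618009-54618068 (minus strand), chromosome 11 at chr11:70525297-70525356 (plus) and chromosome 5 at chr5:123228130-123228189 (plus), with the core in capitals.
Psmb5: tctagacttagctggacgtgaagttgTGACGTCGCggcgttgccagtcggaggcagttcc
Psmb6: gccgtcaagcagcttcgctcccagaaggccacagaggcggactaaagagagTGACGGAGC
Psmd9: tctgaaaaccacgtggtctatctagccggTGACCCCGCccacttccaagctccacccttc

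These 3 genes stood at log2 ratios of −0.02, 0.12 and −0.04, on both sides of 0. The 5 members with the core had a median log2 ratio of 0.02 and the members with a window but no match one of 0.06. A match is a run of letters in the window and not a site of binding.

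A second set of letters, CCGGAAG on either strand, the core of sites for ETS family factors, was searched after the sequences had been read. It lay in the windows of 11 of the 29 genes (37.9%), compared with 22.9% of kept genes with a window and 8.86% of all windows. The genes were Psma6, Psmc1, Psmc2, Psmc3ip, Psmc6, Psmd2, Psmd4, Psmd6, Psmd11, Psmd12 and Psmd13, so 1 core subunit gene and 9 genes of the regulatory particle besides Psmc3ip. It is shown for Psma6 at chr12:55398666-55398725 (plus strand) and Psmc1 at chr12:100110142-100110201 (plus), which had the highest ratios of their classes, and for the scaffold gene Psmd2 at chr16:20651592-20651651 (plus), which had the ratio closest to 0. Capitals mark CCGGAAG or its reverse complement CTTCCGG.
Psma6: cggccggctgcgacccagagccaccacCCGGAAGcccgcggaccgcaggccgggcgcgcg
Psmc1: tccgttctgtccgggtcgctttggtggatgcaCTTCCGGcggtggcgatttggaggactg
Psmd2: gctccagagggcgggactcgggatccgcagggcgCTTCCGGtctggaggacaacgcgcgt

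The log2 ratios of these genes were 0.21, 0.23 and −0.003, so the letters stood both in genes with high ratios and in the gene nearest to 0. The median was 0.04 with and 0.06 without a match. The CCAAT box lay in the windows of 12 of the 29 members (41.4%), compared with 43.5% of kept genes with a window and 37.4% of all windows. Here the median log2 ratio was 0.07 with and 0.02 without a match. An inverted pair of heat shock element units, GAANNTTC, lay in the window of Psmb5 alone (3.45% of the 29), compared with 7.0% of kept genes with a window and 7.86% of all windows. Its letters GAA can overlap those of CCGGAAG.

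The alpha subunits form the outer rings of the core. Of the 7 genes, 6 were higher in fl/fl, their median log2 ratio was 0.07, and their sum was 785 FPKM in wt/fl cells and 853 FPKM in fl/fl. Psma7, the most abundant member of all, was at 168 FPKM in wt/fl cells and 192 in fl/fl (log2 ratio 0.19). Psma6 was at 136 and 158 FPKM, the highest ratio of the ring (0.21). Psma1 was at 69.9 and 68.9 FPKM and was the only alpha gene lower in fl/fl (−0.02). Levels within the ring, where each subunit occupies a position of its own, spanned 2.59-fold by mean FPKM. Psma2, Psma3, Psma4 and Psma5 lay between, at mean levels of 78.8 to 139 FPKM and log2 ratios of 0.03 to 0.13.

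**Figure D2:**
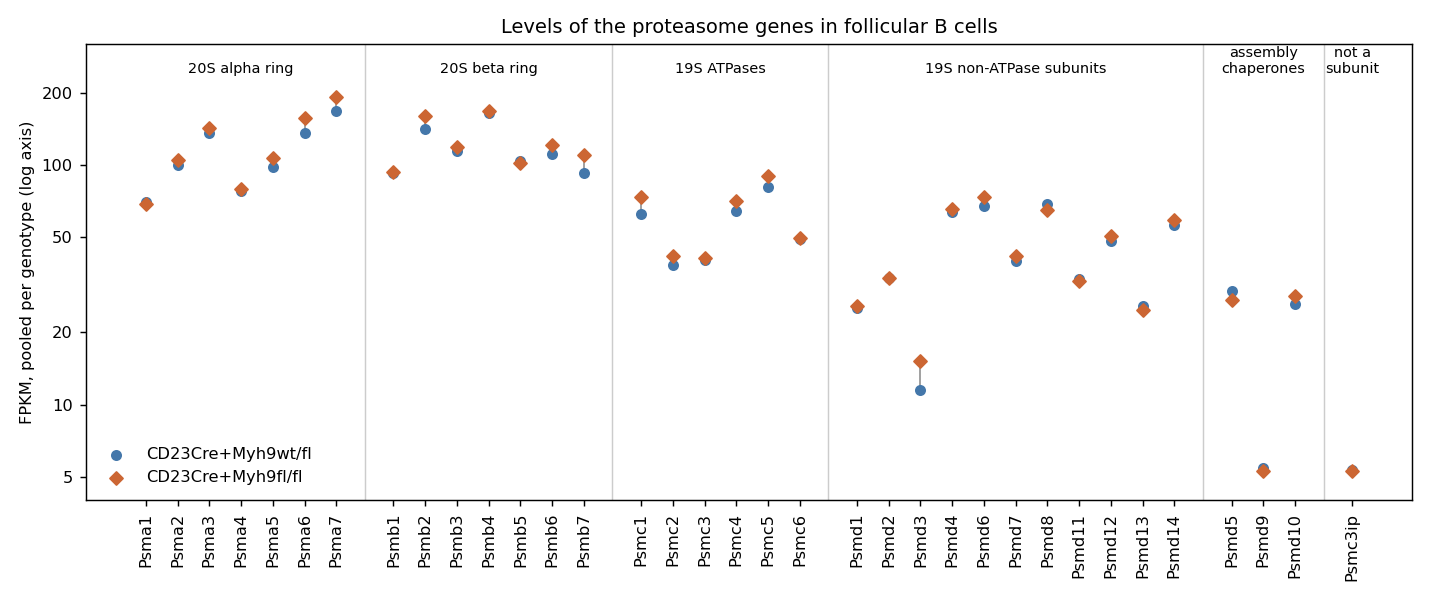
FPKM of each member, pooled per genotype, on a log axis, with CD23Cre+Myh9wt/fl as circles and CD23Cre+Myh9fl/fl as diamonds. Core subunit genes lie between 68.9 and 192 FPKM, and most genes of the regulatory particle lie below them.

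The beta subunits form the inner rings. Of the 7 constitutive genes, 6 were higher in fl/fl, with a median log2 ratio of 0.05 and sums of 820 and 874 FPKM in wt/fl cells and fl/fl. The most abundant were the non-catalytic subunit genes Psmb4, at 164 and 168 FPKM (0.03), and Psmb2, at 141 and 161 FPKM (0.19). Levels in this ring spanned 1.79-fold. Psmb1 and Psmb3, also without a proteolytic site, were at 92.2 and 93.6 FPKM and at 114 and 119 FPKM. Core genes thus stood within a narrow band of levels, between 69.4 and 180 FPKM by their mean.

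The 3 catalytic positions of the beta ring can each be filled by a constitutive or an immunoproteasome subunit. At the beta5 position, which cleaves after hydrophobic residues, constitutive Psmb5 was at 104 FPKM in wt/fl cells and 102 FPKM in fl/fl (log2 ratio −0.02). Its counterpart Psmb8 was at 173 and 207 FPKM (0.26), so the share of Psmb8 in the pair was 62.5% in wt/fl cells and 67.0% in fl/fl. At the beta2 position, which cleaves after basic residues, the constitutive gene had the larger ratio. Constitutive Psmb7 was at 92.8 and 110 FPKM, the highest ratio among constitutive beta genes (0.24), and Psmb10 at 108 and 114 FPKM (0.08), a Psmb10 share of 53.7% and 50.9%. At the beta1 position, which cleaves after acidic residues in its constitutive form, Psmb6 was at 111 and 121 FPKM (0.12) and Psmb9 at 237 and 255 FPKM (0.10), a Psmb9 share of 68.2% and 67.8%. Over the 3 pairs, immunoproteasome transcripts made up 62.8% in wt/fl cells and 63.4% in fl/fl, the larger part in both genotypes.

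**Figure D3:**
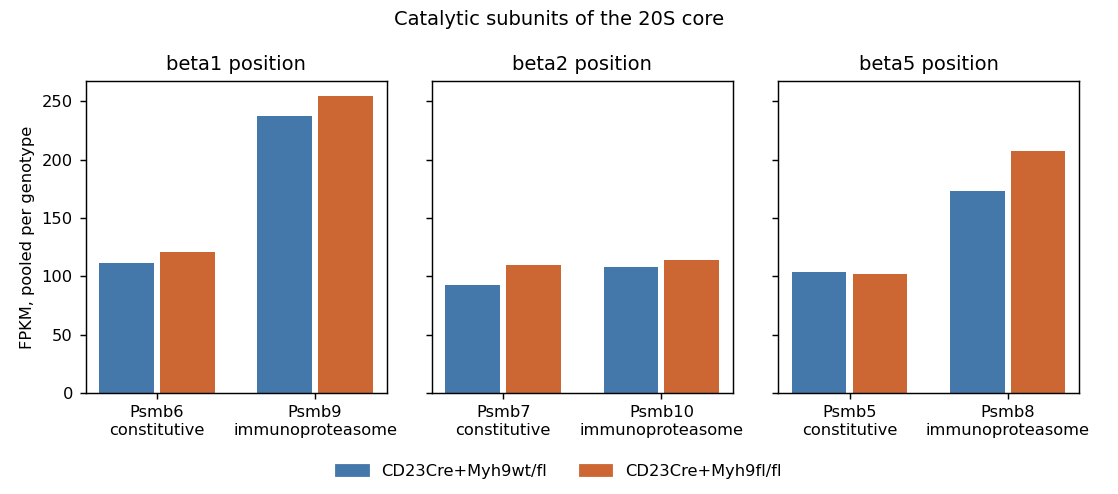
FPKM of the constitutive and immunoproteasome subunit genes at each catalytic position, as 1 pooled value per genotype with no error. The immunoproteasome gene is higher than its constitutive counterpart at all 3 positions, with the smallest gap at beta2, where Psmb10 is at 114 and Psmb7 at 110 FPKM in fl/fl.

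The 6 ATPases form the ring that unfolds substrates and opens the gate of the core. All 6 of their genes were higher in fl/fl, the median log2 ratio was 0.13, and the sums were 336 and 367 FPKM. Psmc5, the most abundant, was at 81.2 FPKM in wt/fl cells and 89.7 in fl/fl (0.14). Psmc1 was at 62.5 and 73.7 FPKM, the highest ratio of the ring (0.23), and Psmc6 at 48.9 and 49.6 FPKM, the lowest (0.02). The other 3 genes, Psmc2, Psmc3 and Psmc4, had ratios between 0.02 and 0.14. The ring's summed level was 9.26% higher, and 0 of the 6 genes were past 0.32.

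The 11 non-ATPase genes of the regulatory particle were more divided, with 7 higher and 4 lower in fl/fl, a median log2 ratio of 0.04, and sums of 473 and 487 FPKM. Psmd3, a structural subunit of the lid, was at 11.5 FPKM in wt/fl cells and 15.3 in fl/fl (0.38), the largest ratio and the lowest level of the 31 subunit genes above the minimum. Psmd6, also of the lid, was at 67.2 and 73.5 FPKM (0.13). Psmd8, a lid subunit as well, was at 68.9 and 65.0 FPKM, the lowest ratio among these 31 genes (−0.08). The remaining genes of this class lay within these values.

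Of the subunits that handle the ubiquitin chain and the scaffold that holds them, those named Psmd lay within 1.1-fold. Psmd14, the deubiquitinase that removes the chain as the substrate is drawn in, was at 56.4 and 59.1 FPKM (0.07). Psmd4, a ubiquitin receptor, was at 63.4 and 65.3 FPKM (0.04). Adrm1, another ubiquitin receptor whose name falls outside the family stems, was at 41.1 and 45.9 FPKM (0.15), above the upper quartile of all genes. The large scaffold subunits Psmd1 and Psmd2 were at 25.3 and 25.7 FPKM (0.02) and at 33.8 and 33.7 FPKM (−0.003). Levels of non-ATPase genes spanned 5.26-fold by mean FPKM, more than those of the ATPase genes (2.13-fold) or of either core ring.

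Of the 8 genes for chaperones that build the complex, 3 were higher and 5 lower in fl/fl. Of those for the regulatory particle, Psmd5 was at 29.8 FPKM in wt/fl cells and 27.4 in fl/fl (−0.12), Psmd9 at 5.46 and 5.27 FPKM (−0.04) and Psmd10 at 26.2 and 28.4 FPKM (0.11, or 0.07 with its most abundant entry alone). Of the 5 for the core, 2 were higher and 3 lower, with a median log2 ratio of −0.12 and sums of 352 and 328 FPKM. Pomp, which guides the beta subunits into place, was at 207 and 190 FPKM (−0.12), and Psmg4, a chaperone of the alpha ring, was at 56.9 and 49.0 FPKM (−0.21). 0 of these 8 genes was past 0.32 in either direction.

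Of the other activators of the core, Psme1 and Psme2 were abundant. These genes, which form the interferon-inducible PA28 cap, were at 300 and 346 FPKM (0.21) and at 313 and 326 FPKM (0.06, or 0.04 with the most abundant entry of Psme2), above every subunit gene. In this list, 5 genes for activators and an inhibitor, 4 were higher in fl/fl and the median log2 ratio was 0.06, or 0.04 with only the most abundant entry of each gene. The other activator genes, Psme3 and Psme4, had lower mean levels, 40.9 and 23.6 FPKM. Of 15 further subunits and associated factors, 6 were higher and 9 lower, with a median of −0.003, or −0.008 with upper quartile scaling. Shfm1, a small subunit of the lid, was at 164 and 158 FPKM (−0.05). Ublcp1, a phosphatase that acts on the proteasome in the nucleus, was at 70.9 and 93.4 FPKM (0.39), the only gene of that list past 0.32.

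Genes upstream of the proteasome showed no common direction. Rps27a, which encodes ubiquitin fused to a ribosomal protein, was at 1229 and 1145 FPKM (−0.10), and it has near-identical pseudogene copies among which fragments could have been split. The ubiquitin-activating enzyme genes were Uba1, at 53.3 and 54.7 FPKM (0.04), and Uba6, at 15.2 and 13.1 FPKM (−0.20). The value of Uba1 turned to −0.23 when only its most abundant entry was used. Of 10 genes for the p97 segregase, which extracts ubiquitinated proteins from complexes and membranes, and its cofactors, 7 were higher and the median was 0.04. Vcp, p97 itself, was at 49.8 and 52.3 FPKM (0.07), and the cofactor gene Ubxn1 at 69.7 and 80.9 FPKM (0.21).

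Regulators of subunit genes had an SD over genes of 0.22, compared with 0.10 for the subunit genes and 0.23 for all genes. Of 13 regulators, 4 were higher and 9 lower in fl/fl, with a median log2 ratio of −0.03 (−0.11 with only the most abundant entry of each gene), and 0 were higher and 2 lower by at least 0.32, against 4.6% and 5.48% of all genes. The latter were Ddi2, the protease that cleaves Nfe2l1 into its active form, at 11.6 and 8.20 FPKM (−0.45), and Mafg, a small Maf partner of Nfe2l1 and Nfe2l2, at 5.06 and 3.53 FPKM (−0.42). The other small Maf genes were higher in fl/fl, Mafk at 13.0 and 15.5 FPKM (0.24) and Maff at 1.26 and 1.58 FPKM (0.19). Nfe2l1 itself was at 26.3 and 25.8 FPKM (−0.03), but its most abundant entry alone gave −0.16. Nfe2l2 was at 38.7 and 44.2 FPKM (0.19), and Hsf1, the heat shock factor, at 44.4 and 39.9 FPKM (−0.15).

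The contrast with heat shock chaperones, another arm of protein quality control, was wide. Their list held genes for the mitochondrial chaperones Hspd1 and Hspe1 besides those for cytosolic ones. Of 18 chaperone genes above the minimum, 17 were lower in fl/fl and 15 of them by at least 0.32, with a median log2 ratio of −0.63 and sums of 4426 and 2633 FPKM. Hspa8 was at 1574 and 788 FPKM (−0.997) and Hsp90ab1 at 936 and 647 FPKM (−0.53). The other 13 past 0.32, Ahsa1, Chordc1, Dnaja1, Dnajb1, Fkbp4, Hsp90aa1, Hspa1a, Hspa1b, Hspa4l, Hspd1, Hspe1, Hsph1 and Stip1, ran from −1.65 (Hsph1) to −0.35 (Hspa1a). This list was chosen with its direction already known from these data. The inverted heat shock pair, which 1 of 29 proteasome windows held, lay in windows of 9 of the 15 chaperone genes with one (60%). Hspd1 and Hspe1 share the same stretch with the pair, and the stretches of Hspa1a and Hspa1b are identical. Of the chaperone genes outside these 9, with no match or no window, only Cacybp (−0.24) and Hspa4 (0.01) were not past 0.32. The part of the pair in the ratios was not tested. The pair is shown in capitals for Dnaja1 at chr4:40722318-40722377 (plus strand) and Fkbp4 at chr6:128438774-128438833 (minus).
Dnaja1: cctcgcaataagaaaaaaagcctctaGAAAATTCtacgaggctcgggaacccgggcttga
Fkbp4: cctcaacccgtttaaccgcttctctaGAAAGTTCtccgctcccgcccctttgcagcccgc

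Dnaja1 and Fkbp4 had log2 ratios of −0.87 and −0.61. Dnajb6, whose window also held the pair, stood at −0.04, or 0.05 with its most abundant entry alone, and so did not share the low ratios of the other chaperones shown. Psmb5, the proteasome gene whose window held the same pattern, stood at −0.02. The 78 cytosolic ribosomal protein genes, another large set of subunits made in parallel, had a median log2 ratio of −0.02, with 34 higher and 44 lower in fl/fl and 0 past 0.32. Their SD over genes, 0.09, was close to that of the proteasome members.

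**Figure D4:**
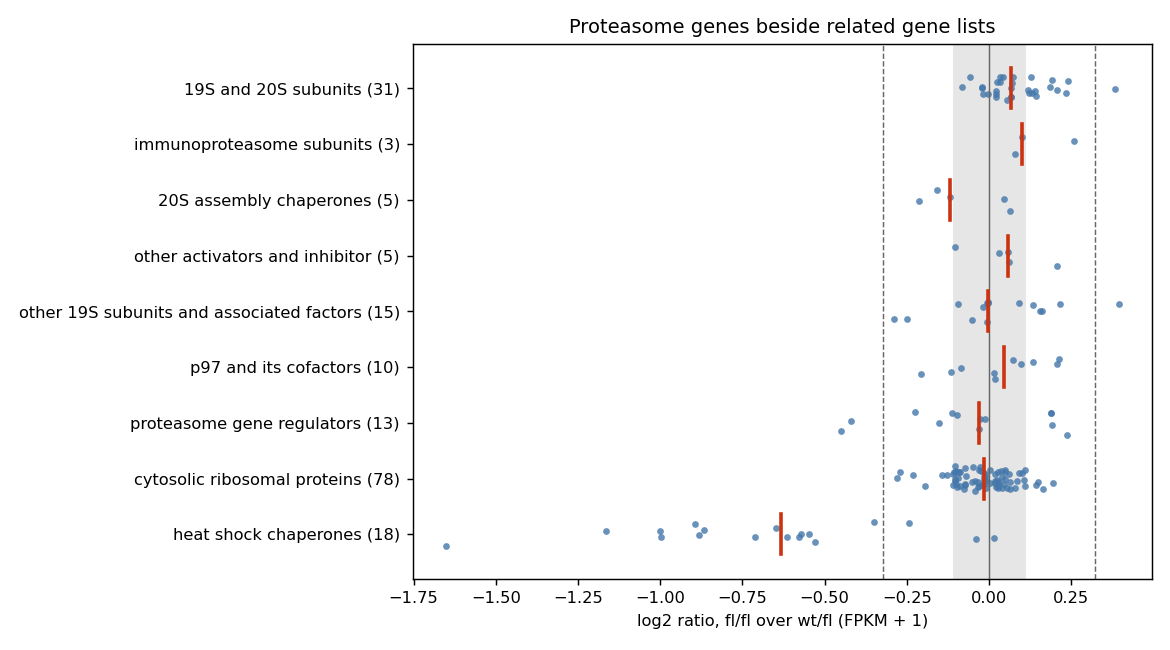
Log2 ratio of fl/fl over wt/fl (FPKM + 1) for each gene (points) of the proteasome and related lists, with the median of each list as a red line and the number of genes in parentheses. The grey band spans the middle 50% of all genes and dashed lines mark 0.32 and −0.32. Heat shock chaperones have a median of −0.63, and the medians of the other lists lie between −0.12 and 0.10.

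In features that the names did not fix, the members differed from other genes in transcript length. The longest protein-coding transcript of each gene in the GENCODE M21 annotation was taken. Its median length was 1581 bases for the 35 members and 3044 bases for all kept genes with a value. Median GC content was 49.5% and 49.8%. Among the 4804 genes in the members' range of both FPKM and length, 55.6% were higher in fl/fl and the median log2 ratio was 0.02, nearer to the members' 74.3% and 0.07 than the values over all genes. These genes shared the range but not the middle of the members. Their median length was 2523 bases, and their median level was 19.3 FPKM against 67.6 for the members. The part of length in the members' ratios was not tested. The members lay on 15 chromosomes, with 7 on chromosome 11, 5 on chromosome 2 and 1, Psmd10, on the X chromosome. Of the 37 genes named, 36 had a single entry in the table, and Psmd10 had 2, at 23.8 and 24.9 FPKM and at 2.40 and 3.45 FPKM.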

How the data were processed

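Total RNA of sorted follicular B cells was amplified with the Ovation RNA-Seq system V2 before library preparation. The FPKM values used here are the authors' deposited values, 1 per genotype and entry, pooled over the 3 samples of a genotype, in a table with the layout of Cuffdiff in which an entry is a group of transcripts sharing a coding sequence (25017 entries). The submitters' processing notes name Bowtie, TopHat and Cufflinks, with no versions, and mm10 and GRCm38. Table positions do not match that build (Myh9 at chromosome 15, 77591018 to 77672545, against 77760587 to 77842175 in GENCODE M21 on GRCm38) and only chromosome names were taken from them. The table's columns of fold change, test statistic, p and q hold the authors' comparison and were not used.

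FPKM was summed per gene name, leaving out 44 entries whose symbol reads as a date. Genes whose mean over the genotypes reached 1 FPKM were kept, and log2 ratios had a pseudocount of 1. Python 3.11.15, pandas 2.3.3, numpy 2.4.6 and matplotlib 3.10.9 were used, and the computation was tested on simulated data. Depth is unknown, and with 1 pooled value per genotype no test, interval or SD over samples was computed, and an SD over genes is a description. Members and lists were chosen with earlier results of these data known. Genes were named by rule: Myh9, in each class the 2 most abundant and the highest and lowest ratio, catalytic subunits, ubiquitin receptors, the deubiquitinase, scaffolds, members under the minimum, and in each other list the 2 most abundant and those past 0.32. Other genes were named after their values were seen. The list of ubiquitin precursors is not reported here as a whole. RefSeq promoter windows were matched by symbol. Alternatives were other pseudocounts, filters, folds, entries and scalings.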

Additional observations from a re-analysis of the deposited data

How the results depend on the processing

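No paired analysis was possible because the table holds 1 pooled value per genotype, and for the same reason no replicate could be left out. The median log2 ratio of the 35 members stayed between 0.06 and 0.07 with pseudocounts of 0.1 and 0.5, a minimum of 5 FPKM or none, the most abundant entry of each gene, upper quartile scaling, centring on the median of all genes, and the 31 subunits alone, the last chosen after seeing the data. The count of members lower by at least 0.32 on the log2 scale was 0 under each of these and at 1.1-fold and 1.5-fold. The count higher was 1, but 2 with no filter on low values, which let in Psma8, 8 at 1.1-fold and 0 at 1.5-fold. With the most abundant entry of each gene, the median log2 ratio was 0.0368 for other activators, −0.215 for ubiquitin-activating enzymes and −0.112 for regulators. The median of associated factors, close to 0, was −0.00845 with upper quartile scaling and −0.00541 with centring. The cause of these shifts was not tested. The other 119 alternatives to counts and medians stayed within the limit set for a shift. Of 621 alternatives for 90 single genes, 13 changed sign or moved by over 1.5 times. With the most abundant entry, Uba1 changed sign to −0.23 and Dnajb6 to 0.05, Nfe2l1 went to −0.16, Psmd10 to 0.07, Psme2 to 0.04 and Xbp1 to −0.04. With a pseudocount of 0.1, the low genes Hspa1a, Sdc1, Map1lc3a, Maff and Optn went to −0.64, −0.97, −1.10, 0.30 and 0.59. Psmd2 went to −0.00851 with upper quartile scaling and −0.00513 with centring. Upper quartile scaling shifted the median log2 ratio of all genes by −0.006.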

Other observations

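Complexes related to the regulatory particle were listed after the values of the proteasome members had been seen and before their own were. The lid of the regulatory particle shares its architecture with the COP9 signalosome, which removes Nedd8 from cullin ubiquitin ligases, and with the translation initiation factor eIF3. Of 9 COP9 signalosome genes, 7 were higher and 2 lower in fl/fl, with a median log2 ratio of 0.07 and sums of 262 and 286 FPKM in wt/fl cells and fl/fl. Cops5, the catalytic subunit and paralog of Psmd14, was at 38.5 and 49.2 FPKM (0.35) and was the only one past 0.32 on the log2 scale. Cops6, its partner in the complex, was at 61.4 and 68.9 FPKM (0.16). Of 12 eIF3 genes, 9 were higher and 3 lower, with a median of 0.04, and 0 were past 0.32. The most abundant, Eif3k, was at 344 and 321 FPKM (−0.10), and Eif3i at 190 and 216 FPKM (0.19).

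Genes of the autophagy core, the other route of bulk protein degradation, had no common direction. Of 18 genes, 9 were higher and 9 lower, the median log2 ratio was −0.02, and the sums were 462 FPKM in both genotypes. Sqstm1, a receptor that carries ubiquitinated cargo to autophagosomes, was at 49.0 and 44.5 FPKM (−0.13). Map1lc3a (2.40 and 1.07 FPKM, −0.72) and Optn (1.14 and 1.77 FPKM, 0.37) were past 0.32 in opposite directions, both at low levels.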
